A study of Mus musculus with 20 samples.

Results

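The 10 genes described here encode the urea cycle and the steps that feed it in mouse liver. They are the activator enzyme Nags, the 5 cycle enzymes Cps1, Otc, Ass1, Asl and Arg1, the mitochondrial carriers Slc25a15 and Slc25a13, and the amino acid enzymes Gls2 and Oat. They were taken by name from 53599 gene symbols in 2 count tables, with earlier results of these data known. All 10 had enough counts to be tested in every comparison.

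The urea cycle turns ammonia, which is toxic, into urea that the kidney can excrete. Its first steps run in the mitochondria and its later steps in the cytosol, so ornithine, citrulline and aspartate have to cross the inner mitochondrial membrane. In liver the cycle is strongest in the hepatocytes around the portal vein, while ammonia that escapes it is captured as glutamine by a thin layer of hepatocytes around the central vein.

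Bulk liver was sequenced from PPARa knockout mice (KO) and from mice carrying a human PPARa transgene (hPPARa). PPARa is a nuclear receptor of fatty acids that turns on the genes for their oxidation. Perfluorooctanoic acid (PFOA), a persistent fluorinated surfactant, was given in the drinking water at 8 µM from weaning for 6 to 7 weeks, and the vehicle groups drank the same 0.5% sucrose water without it. The 20 libraries comprised 3 KO males and 3 KO females on PFOA, 3 KO males and 1 KO female on vehicle, 3 hPPARa males and 2 hPPARa females on PFOA, and 2 hPPARa males and 3 hPPARa females on vehicle. All mice ate a diet modelled on American intake, with 33.5% of its energy from fat, 51.8% from carbohydrate and 14.7% from protein. The promoter of the transgene, the state of the mouse Ppara gene in the hPPARa line and the deleted part of Ppara in the knockout were not stated in the labels. Whether the libraries of a group are from different animals is not said either, so a p-value here covers only the spread between libraries, which may be technical.

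Libraries held 14973673 to 17953860 counts. Levels are given in CPM, a gene's counts scaled by the TMM-adjusted library size. The mouse Ppara row had 8.42 to 25.1 CPM in KO libraries and 17.0 to 39.6 CPM in hPPARa libraries, so it does not check the genotype labels. KO female PFOA replicate 2 and KO female vehicle replicate 1 held Y-linked transcripts (Ddx3y at 4.07 and 1.86 CPM, against at most 0.107 CPM in the other KO females), and KO male PFOA replicate 2 held Xist at 30.8 CPM, against at most 3.21 CPM in the other KO males. KO female vehicle replicate 1 is the only library of its group. For the 10 genes, results from the KO females, and those in KO that change without these 3 libraries, are given with that limit. Values of genes outside the 10 were not checked without these 3 libraries. Without KO female vehicle replicate 1, PFOA against vehicle in KO rests on the males alone. In such fits fewer libraries and a single sex cannot be told apart from the transcripts of the other sex. The 10 genes together took 0.626 to 0.773% of all counts in KO PFOA, 0.730 to 1.07% in KO vehicle, 0.428 to 0.792% in hPPARa PFOA and 0.787 to 1.03% in hPPARa vehicle. The lowest share was that of hPPARa male PFOA replicate 1, which also had the highest share of mitochondrially encoded counts in its group (12.9%, in a range of 6.62 to 12.9%). In bulk tissue, fewer cells of a type and less RNA per cell cannot be told apart.

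PFOA lowered Ass1 in both genotypes, and in hPPARa livers it also lowered Asl, Arg1 and Gls2 and raised Slc25a13. In KO livers 1 of the 10 genes was called, as lower, where 6.36% of the 15334 genes tested were called lower, 7.41% higher and 13.8% in either direction, by edgeR's quasi-likelihood test at an adjusted p of 0.05. In hPPARa livers 4 of the 10 fell and 1 rose, where 9.76% of 14400 genes were called lower, 12.8% higher and 22.6% in either direction. The median log2 fold change of the 10 genes was −0.34 in KO and −0.33 in hPPARa, against −0.02 and −0.01 over all genes tested, and 8 of the 10 values in KO and 9 of the 10 in hPPARa lay below 0. At an unadjusted p under 0.05 there were 7 genes in each genotype, and the share of all genes at that level was not counted. DESeq2 called 6 genes lower in KO (Ass1, Asl, Cps1, Arg1, Gls2 and Oat), where its calls over all genes were 2416, against 2113 by edgeR. The count in KO thus depends on the tool. Without the 3 libraries named above edgeR called 0 of the 10 in KO, with 1 at an unadjusted p under 0.05. There its calls over all genes were 630, and the comparison rests on males alone. The difference between the PFOA effects, KO minus hPPARa, was called for 0 of the 10 genes by edgeR and by DESeq2, with 1 gene at an unadjusted p under 0.05 and 1.17% of all genes called. These differences ran from −0.56 (Oat) to 0.34 (Asl), with adjusted p from 0.313 to 0.939, so no gene of the 10 was shown to respond differently in the 2 genotypes.

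**Figure D1:**
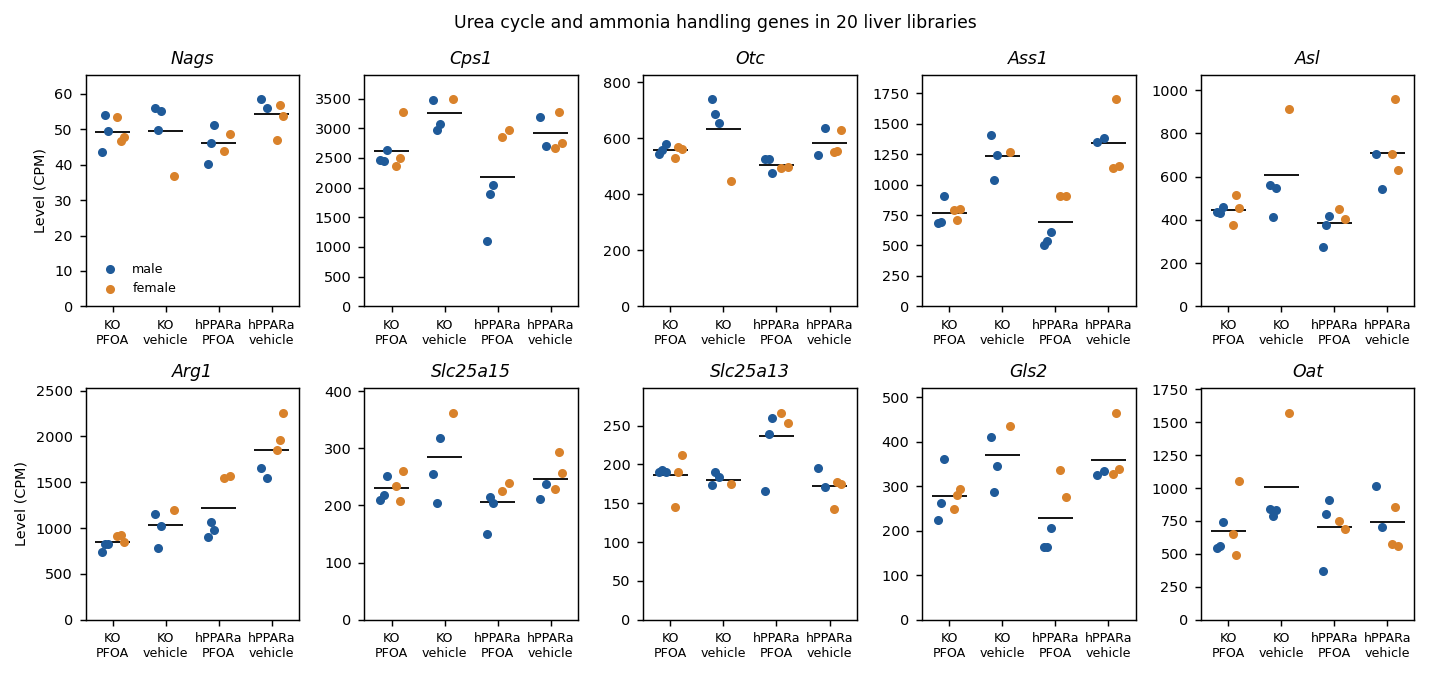
Level of each gene (y axis, CPM from 0) in each of the 20 libraries, grouped on the x axis by genotype and exposure; each point is 1 library, coloured by sex, and the line is the group mean. The PFOA points of Ass1 lie below all vehicle points in both genotypes, from 687 to 903 against 1034 to 1403 CPM in KO and from 504 to 903 against 1135 to 1699 CPM in hPPARa.

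Nags makes N-acetylglutamate, the molecule without which Cps1 is inactive, and had low levels in every group. Nags had 43.5, 54.0 and 49.4 CPM in KO PFOA males and 53.5, 46.6 and 47.9 CPM in KO PFOA females, against 56.1, 49.8 and 55.2 CPM in KO vehicle males and 36.9 CPM in the KO vehicle female. It had 40.3, 46.0 and 51.3 CPM in hPPARa PFOA males and 43.9 and 48.6 CPM in hPPARa PFOA females, against 58.4 and 56.1 CPM in hPPARa vehicle males and 46.8, 56.8 and 53.8 CPM in hPPARa vehicle females. The ranges overlapped in both genotypes, and the lone KO vehicle female was the lowest of all 20 libraries. The log2 fold change with PFOA was 0.04 ± 0.11 in KO (SE; adjusted p = 0.839) and −0.25 ± 0.09 in hPPARa (adjusted p = 0.0617). The hPPARa value passed the threshold only without hPPARa female vehicle replicate 1 (−0.30, adjusted p = 0.0323), and the KO value was −0.13 without the KO vehicle female.

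Cps1 joins ammonia and bicarbonate to carbamoyl phosphate, the entry step of the cycle. In KO it had 2461, 2455 and 2628 CPM in PFOA males and 2371, 2498 and 3272 CPM in PFOA females, against 3480.4, 2962 and 3070.2 CPM in vehicle males and 3486 CPM in the vehicle female. KO female PFOA replicate 3 alone reached into the vehicle range. The log2 fold change in KO was −0.34 ± 0.11 (adjusted p = 0.0586), and without that library −0.39 (adjusted p = 0.022). No other of the 10 KO fits with 1 library left out passed the threshold. Over the 10 fits the value ran from −0.39 to −0.31, with adjusted p from 0.022 to 0.147. In hPPARa, Cps1 had 1109, 1884 and 2048 CPM in PFOA males and 2847 and 2971 CPM in PFOA females, against 3192 and 2709 CPM in vehicle males and 2666, 3276 and 2755 CPM in vehicle females. All 3 PFOA males were below both vehicle males, whereas both PFOA females lay within the range of the vehicle females. Over both sexes the log2 fold change was −0.41 ± 0.19 (adjusted p = 0.14).

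Otc joins carbamoyl phosphate to ornithine and releases citrulline into the mitochondrial matrix. KO PFOA males had 545, 557 and 580.2 CPM and KO PFOA females 529, 569 and 562 CPM, against 738, 688 and 655 CPM in KO vehicle males and 447 CPM in the KO vehicle female. The males did not overlap, and all 3 PFOA females were above the single vehicle female. The KO log2 fold change was −0.11 ± 0.12 (adjusted p = 0.571). In hPPARa the 5 PFOA libraries ran from 477 to 527 CPM with a median of 498 CPM, below all 5 vehicle libraries, which ran from 538 to 637 CPM with a median of 554 CPM. The difference was small, at −0.22 ± 0.09 on the log2 scale, and missed the threshold (adjusted p = 0.118).

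Ass1 joins citrulline to aspartate in the cytosol, and with PFOA it fell in both genotypes. KO PFOA males had 687, 695 and 903 CPM and KO PFOA females 788, 711 and 796 CPM, against 1403, 1034 and 1244 CPM in KO vehicle males and 1264 CPM in the KO vehicle female. hPPARa PFOA males had 504, 535 and 607 CPM and hPPARa PFOA females 903 and 903 CPM, against 1346 and 1381 CPM in hPPARa vehicle males and 1135, 1699 and 1150 CPM in hPPARa vehicle females. No PFOA library of either genotype reached any vehicle library. Ass1 was 1.62-fold lower with PFOA in KO (log2 fold change −0.70 ± 0.12, adjusted p = 0.00191) and 1.92-fold lower in hPPARa (−0.94 ± 0.16, adjusted p = 0.00105). Both calls held without each library in turn, with ranges of −0.79 to −0.64 in KO and −1.03 to −0.85 in hPPARa. In KO the call was lost without the 3 libraries that held transcripts of the other sex (−0.62, adjusted p = 0.0804), a fit in which only males have vehicle libraries. The PFOA effects differed by 0.23 ± 0.21, KO minus hPPARa (adjusted p = 0.661).

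The promoter of Ass1 is shown because Ass1 was the gene of the 10 that fell in both genotypes. It is the 250 bases upstream of the transcription start in RefSeq for GRCm38.p6, at chr2:31470020-31470269 on the plus strand, a build other than the GRCm39 of the count tables. Capitals mark a GC box (GGGCGG), 63 to 58 bases upstream of the start, and an E-box (CACGTG), 36 to 31 bases upstream.
Ass1: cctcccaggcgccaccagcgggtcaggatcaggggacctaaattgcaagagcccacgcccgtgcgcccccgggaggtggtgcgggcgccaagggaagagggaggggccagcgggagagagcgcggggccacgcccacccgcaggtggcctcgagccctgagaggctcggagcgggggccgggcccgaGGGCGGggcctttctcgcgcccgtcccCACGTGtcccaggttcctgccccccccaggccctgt
This window was 75.6% G and C, against a median of 52.4% over all windows. Both motifs were picked after the windows had been read. A GC box on either strand was found in 32.7% of all 32851 windows of this length and an E-box in 6.02%. RefSeq windows were found for 6 of the 10 genes (Nags, Otc, Ass1, Slc25a15, Slc25a13 and Oat), with a second start for Slc25a15, and not for Cps1, Asl, Arg1 and Gls2. None of these 7 windows held the direct repeat AGGTCANAGGTCA, which PPARa with its partner RXR can bind and which 0.0335% of all windows held. Nor did any hold the form of it with any base in the fourth place of each repeat (0.338% of all windows), the cyclic AMP element TGACGTCA (1.55%), the C/EBP motif TTGCNNAA (9.56%) or TATAAA (12.4%). A match or its lack describes only the letters of these windows.

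Asl splits argininosuccinate into arginine and fumarate. It fell with PFOA in hPPARa livers. hPPARa PFOA males had 277, 374 and 416 CPM and hPPARa PFOA females 451 and 402 CPM, against 704 and 542 CPM in hPPARa vehicle males and 703, 957 and 632 CPM in hPPARa vehicle females. The groups did not overlap, and Asl was 1.78-fold lower with PFOA (log2 fold change −0.83 ± 0.15, adjusted p = 0.00129), a call that held without each library in turn. In KO, Asl had 435, 430.2 and 461 CPM in PFOA males and 377, 515 and 453 CPM in PFOA females, against 562, 412 and 546 CPM in vehicle males and 913 CPM in the vehicle female. KO male vehicle replicate 2 lay within the PFOA range, and the vehicle female stood far above the rest. The KO log2 fold change was −0.49 ± 0.16 (adjusted p = 0.0577). It was −0.61 (adjusted p = 0.0181) without KO male vehicle replicate 2 and −0.19 (adjusted p = 0.43) without the KO vehicle female.

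Arg1 splits arginine into urea and ornithine and closes the cycle. PFOA lowered it in hPPARa livers, and it was also the only one of the 10 that differed between the genotypes on vehicle. hPPARa PFOA males had 898, 1066 and 984 CPM and hPPARa PFOA females 1550.0 and 1572 CPM, against 1652 and 1547 CPM in hPPARa vehicle males and 1851, 1957 and 2260 CPM in hPPARa vehicle females. Within each sex every PFOA library was below every vehicle library; over both sexes the ranges met where the PFOA females reached the vehicle males. Arg1 was 1.46-fold lower with PFOA in hPPARa (log2 fold change −0.54 ± 0.11, adjusted p = 0.00306), a call that held without each library in turn. KO PFOA males had 739, 824 and 831 CPM and KO PFOA females 912, 930 and 843 CPM, against 1149, 778 and 1023 CPM in KO vehicle males and 1194 CPM in the KO vehicle female. KO male vehicle replicate 2 alone was within the PFOA range. The KO log2 fold change was −0.34 ± 0.11 (adjusted p = 0.065), and −0.44 (adjusted p = 0.0148) without that library. This was the only 1 of 10 fits with 1 library left out that passed the threshold. Over the 10 fits the value ran from −0.44 to −0.28, with adjusted p from 0.0148 to 0.194.

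On vehicle, the 4 KO libraries averaged 1036 ± 187 CPM of Arg1, against 1853 ± 279 CPM in the 5 hPPARa libraries (SD). The highest KO library, at 1194 CPM, was below the lowest hPPARa library, at 1547 CPM. The log2 difference was −0.74 ± 0.12 (adjusted p = 0.00133), and it held without each of the 20 libraries in turn. With the 5 male vehicle libraries alone it was −0.71 (adjusted p = 0.143). This was the only call among the 10 genes, in the lower direction, where 3.77% of 15811 genes were called in all and 1.76% lower. Of the others, Oat had the largest value, 0.51 ± 0.26 (adjusted p = 0.294), with 1009 ± 377 CPM in KO vehicle and 743 ± 193 CPM in hPPARa vehicle, and it was −0.08 with the males alone. The remaining 8 ran from −0.19 to 0.28 with adjusted p from 0.263 to 0.876.

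**Figure D2:**
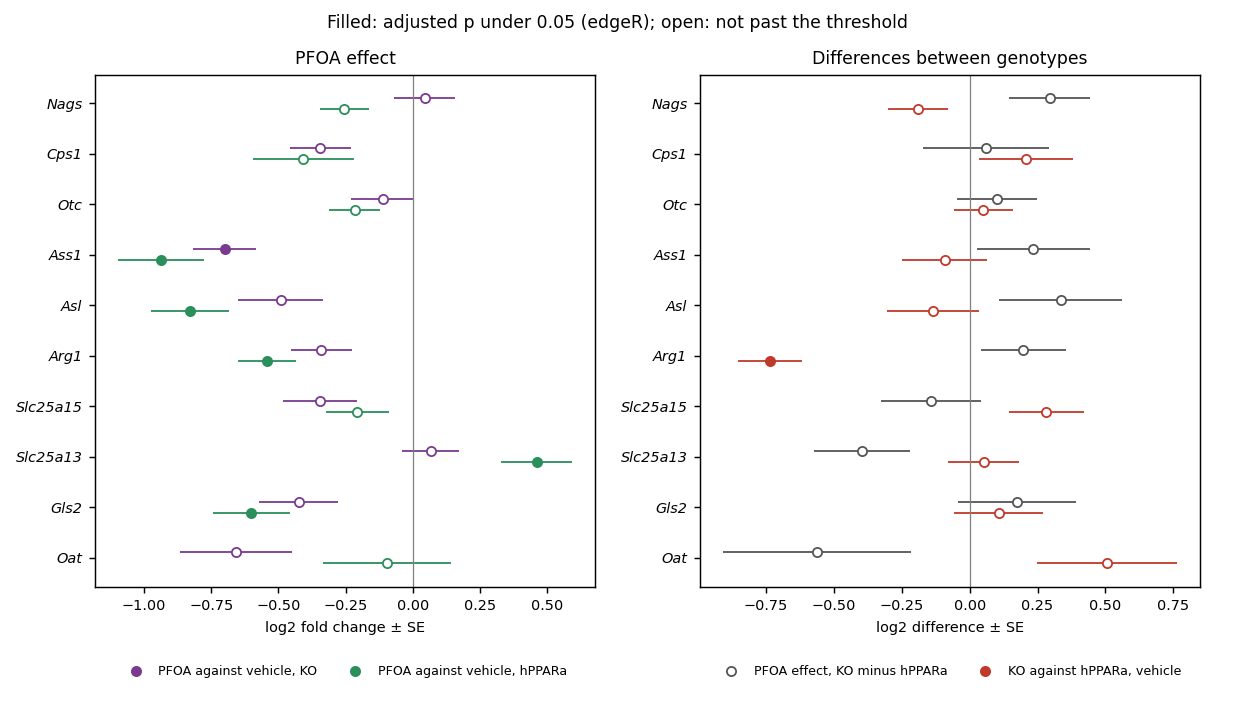
Log2 fold changes with PFOA in each genotype (left) and log2 differences between the genotypes (right: the PFOA effect in KO minus that in hPPARa, and KO against hPPARa on vehicle) for the 10 genes, with bars of 1 SE; filled points passed an adjusted p of 0.05. Ass1 is filled in both genotypes, Asl, Arg1, Gls2 and Slc25a13 in hPPARa, and Arg1 in the vehicle comparison.

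Slc25a15 is the mitochondrial carrier that exchanges ornithine for citrulline, and its levels overlapped in both genotypes. KO PFOA libraries ran from 207 to 261 CPM with a median of 226 CPM, against 204, 255, 317 and 362 CPM in KO vehicle. hPPARa PFOA libraries had 150, 214 and 204 CPM in males and 226 and 239 CPM in females, against 212 and 238 CPM in vehicle males and 228, 293 and 256 CPM in vehicle females. The log2 fold changes were −0.35 ± 0.14 in KO (adjusted p = 0.112) and −0.21 ± 0.12 in hPPARa (adjusted p = 0.219). The KO value was −0.46 (adjusted p = 0.0299) without KO male vehicle replicate 2 and −0.19 (adjusted p = 0.476) without the KO vehicle female.

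Slc25a13, also called citrin, brings aspartate out of the mitochondria for Ass1, and it was the only one of the 10 that rose. hPPARa PFOA males had 166, 239 and 260 CPM and hPPARa PFOA females 267 and 253 CPM, against 196 and 172 CPM in hPPARa vehicle males and 143, 177 and 175 CPM in hPPARa vehicle females. All PFOA libraries except male replicate 1 were above all vehicle libraries. The rise was 1.38-fold (log2 fold change 0.46 ± 0.13, adjusted p = 0.0234). It lost its call without hPPARa female PFOA replicate 1 (0.41, adjusted p = 0.0881), female PFOA replicate 2 (0.44, adjusted p = 0.071) or male PFOA replicate 3 (0.42, adjusted p = 0.051). KO PFOA libraries had 190.0, 193 and 189.9 CPM in males and 146, 191 and 213 CPM in females, against 173, 189.7 and 184 CPM in vehicle males and 174 CPM in the vehicle female. Those levels overlapped, at a log2 fold change of 0.07 ± 0.11 (adjusted p = 0.724). The difference of the PFOA effects, KO minus hPPARa, was −0.40 ± 0.18, with an unadjusted p of 0.0346 and an adjusted p of 0.313.

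The Slc25a13 promoter is shown beside that of Ass1, since its product supplies Ass1 and its level went the other way in hPPARa. The RefSeq window is chr6:6217174-6217423 of GRCm38.p6, on the minus strand, and was 62.8% G and C. Capitals mark an E-box 125 to 120 bases upstream of the start and a CCAAT box 22 to 18 bases upstream.
Slc25a13: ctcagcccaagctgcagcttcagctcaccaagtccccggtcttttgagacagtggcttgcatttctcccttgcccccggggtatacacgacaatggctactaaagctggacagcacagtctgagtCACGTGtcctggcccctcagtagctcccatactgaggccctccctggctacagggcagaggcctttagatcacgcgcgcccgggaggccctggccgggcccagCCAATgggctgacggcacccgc
The E-box CACGTG was found in the Ass1, Slc25a13 and Slc25a15 windows, the GC box in those of Ass1, Nags and Slc25a15, and CCAAT, which 33.8% of all windows held on either strand, in those of Oat and Slc25a13. The Otc window held none of these 3 motifs, all of which were picked after the windows had been read.

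Gls2, the liver-type glutaminase, frees ammonia from glutamine next to Cps1. It fell with PFOA in hPPARa livers. hPPARa PFOA males had 164, 163 and 206 CPM and hPPARa PFOA females 336 and 275 CPM, against 325 and 334 CPM in hPPARa vehicle males and 328, 465 and 338 CPM in hPPARa vehicle females. The 3 PFOA males were far below all vehicle libraries, and female PFOA replicate 1 lay inside the vehicle range. Gls2 was 1.52-fold lower (log2 fold change −0.60 ± 0.14, adjusted p = 0.0092), a call that held without each library in turn. In KO it had 224, 262 and 361 CPM in PFOA males and 249, 280.0 and 293 CPM in PFOA females, against 409.7, 288 and 345 CPM in vehicle males and 434 CPM in the vehicle female. The KO groups overlapped, with a log2 fold change of −0.42 ± 0.15 (adjusted p = 0.0712). Without KO male PFOA replicate 3 it was −0.57 (adjusted p = 0.0129), and without KO male vehicle replicate 2 it was −0.52 (adjusted p = 0.036). These were the only 2 of 10 fits with 1 library left out that passed the threshold. Over the 10 fits the value ran from −0.57 to −0.30, with adjusted p from 0.0129 to 0.315.

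Oat moves the amino group of ornithine onto 2-oxoglutarate and so draws ornithine away from the cycle. KO PFOA males had 544, 559.8 and 739 CPM and KO PFOA females 649, 495 and 1054 CPM, against 839, 789 and 833 CPM in KO vehicle males and 1573 CPM in the KO vehicle female. Only KO female PFOA replicate 3 reached the vehicle range, and the vehicle female was the highest library of all. The KO log2 fold change was −0.66 ± 0.21 (adjusted p = 0.058). It was −0.75 (adjusted p = 0.0297) without KO female PFOA replicate 3, −0.57 (adjusted p = 0.0365) without KO female PFOA replicate 2, −0.78 (adjusted p = 0.035) without KO male PFOA replicate 3, and −0.42 (adjusted p = 0.303) without the KO vehicle female. In hPPARa, PFOA libraries ran from 373 to 911 CPM with a median of 753 CPM, against 562 to 1017 CPM with a median of 703 CPM in vehicle libraries. The groups overlapped, with a log2 fold change of −0.10 ± 0.24 (adjusted p = 0.802).

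The sexes were then taken apart. In hPPARa males 5 of the 10 genes were called with PFOA, all lower, where 2.9% of all genes were called lower and 8.2% in either direction. These were Ass1 (log2 fold change −1.31 ± 0.17, adjusted p = 0.000383), Gls2 (−0.89 ± 0.17, adjusted p = 0.00589), Cps1 (−0.81 ± 0.21, adjusted p = 0.0346), Asl (−0.81 ± 0.20, adjusted p = 0.0284) and Arg1 (−0.70 ± 0.14, adjusted p = 0.00599). In hPPARa females Ass1 (−0.56 ± 0.18, adjusted p = 0.0432) and Asl (−0.85 ± 0.21, adjusted p = 0.016) fell and Slc25a13 rose (0.65 ± 0.17, adjusted p = 0.0214), where 7.87% of all genes were called lower, 10.5% higher and 18.4% in either direction. The Cps1 value in hPPARa females was −0.00 ± 0.22 (adjusted p = 0.993). The difference of the PFOA effects, males minus females, was called for 0 of the 10 genes in hPPARa by edgeR and by DESeq2, with 3 at an unadjusted p under 0.05 and 0.104% of all genes called. It was −0.81 ± 0.30 for Cps1 (adjusted p = 0.394) and −0.75 ± 0.25 for Ass1 (adjusted p = 0.323), so a sex difference in the response was not shown.

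Several of these calls rest on single libraries. In hPPARa males, 2 calls were left without vehicle replicate 1, where Cps1 (−0.69, adjusted p = 0.239), Asl (−0.61, adjusted p = 0.262) and Arg1 (−0.66, adjusted p = 0.0775) lost theirs. Likewise 2 were left without vehicle replicate 2, where Cps1 (−0.91, adjusted p = 0.101), Asl (−0.97, adjusted p = 0.0554) and Gls2 (−0.86, adjusted p = 0.0566) lost theirs. Leaving out PFOA replicate 1 (−0.66, adjusted p = 0.059) or PFOA replicate 2 (−0.85, adjusted p = 0.0556) of the hPPARa males also ended the Asl call. The Cps1 call ended when PFOA replicate 1 (−0.81, adjusted p = 0.0559) or PFOA replicate 2 (−0.81, adjusted p = 0.0566) of the hPPARa females was left out. In hPPARa females no call was left without female PFOA replicate 1 or without female PFOA replicate 2, where the calls over all genes fell to 796 and 808, against 2644 with all libraries. Without female vehicle replicate 1 the Slc25a13 value was 0.56 (adjusted p = 0.072). Ass1 in hPPARa females was −0.35 (adjusted p = 0.116) without female vehicle replicate 2, and it also missed the threshold without male vehicle replicate 1 (adjusted p = 0.0637), male vehicle replicate 2 (adjusted p = 0.0602) or male PFOA replicate 2 (adjusted p = 0.0562).

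In KO males Ass1 fell (log2 fold change −0.68 ± 0.14, adjusted p = 0.0127), the only call of the 10, where 3.46% of all genes were called lower and 9.1% in either direction. That call was lost without KO male vehicle replicate 1 (−0.59, adjusted p = 0.0553), KO male PFOA replicate 2 (−0.63, adjusted p = 0.0633) or the 3 libraries that held transcripts of the other sex (−0.62, adjusted p = 0.0804). The last is the same male comparison as the one given above for KO without these 3 libraries. In KO females the comparison is with 1 vehicle library, which held Y-linked transcripts and had the highest Asl level in KO, so it is no replicated comparison of PFOA with vehicle. Against that library Ass1 had a log2 value of −0.74 ± 0.20 (adjusted p = 0.0479) and Asl −1.04 ± 0.19 (adjusted p = 0.00879), both past the threshold, as were 2.97% of all genes as lower and 5.31% in either direction. The fit takes the lone library to vary like the others, and the Ass1 call was lost in 7 of the 9 fits that left out another library (adjusted p of 0.0528 to 0.109). The KO males and females differed in the PFOA effect for 0 of the 10 genes by edgeR, with 3 at an unadjusted p under 0.05 and 0.241% of all genes called. DESeq2 called 1, which was Otc (−0.60, adjusted p = 0.0248, against −0.59 ± 0.18 and adjusted p = 0.242 by edgeR).

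**Figure D3:**
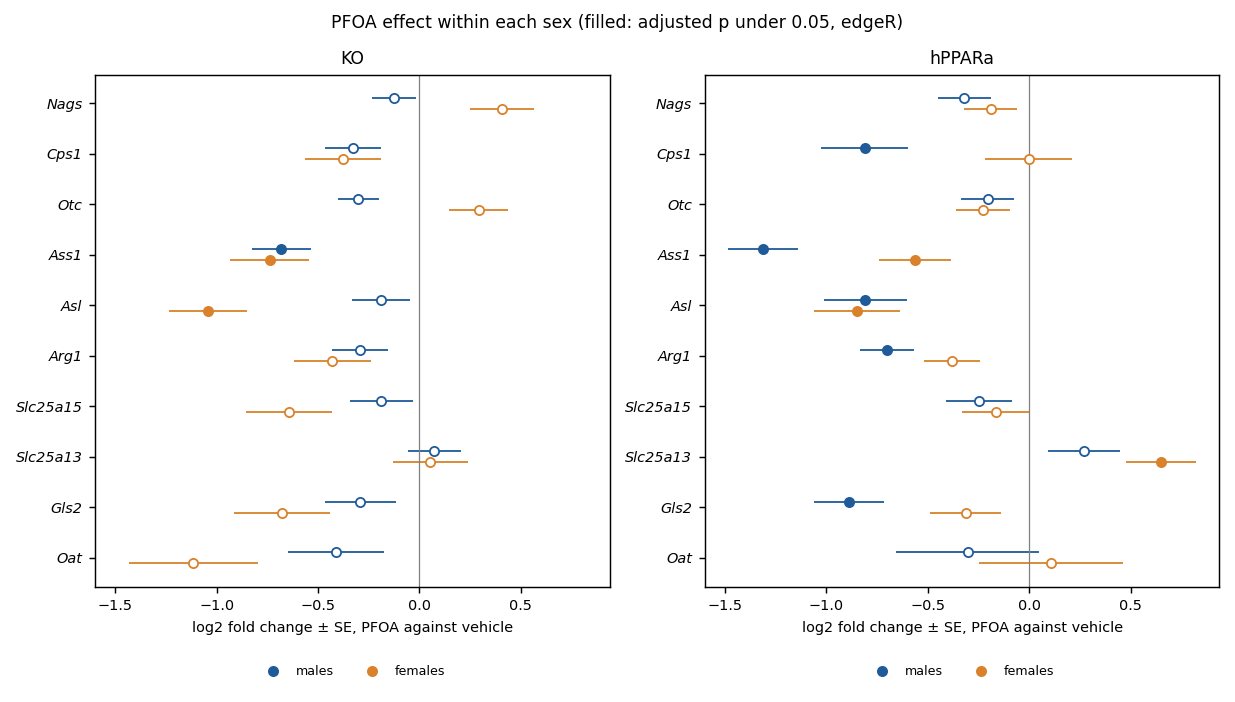
Log2 fold changes with PFOA against vehicle within males and within females of KO (left) and hPPARa (right), with bars of 1 SE; filled points passed an adjusted p of 0.05. Ass1 is filled in both sexes of both genotypes, and in hPPARa males Cps1 stands at −0.81 and in hPPARa females at about 0.

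Males and females were also compared with exposure held as a term. Arg1 was lower in males than in females in hPPARa livers (log2 difference −0.50 ± 0.11, adjusted p = 0.0219), the only call of the 10, where 1.94% of all genes were called lower in males and 3.48% in either direction. It was lost without hPPARa female PFOA replicate 1 (adjusted p = 0.0722) or 2 (adjusted p = 0.102). Gls2 was called beside it without hPPARa female vehicle replicate 1 (−0.55, adjusted p = 0.0499). In KO 0 of the 10 were called by edgeR and by DESeq2, with 1 at an unadjusted p under 0.05 and 3.41% of all genes called. Oat reached the threshold without KO female PFOA replicate 2 (−0.66, adjusted p = 0.0458) and with no filter on low counts (−0.48, adjusted p = 0.0051).

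Levels were also taken per kilobase of exon, with the union of all exons annotated for a gene in GENCODE vM21 as its length. On this measure Cps1, Arg1, Ass1 and Oat had the highest levels of the 10 genes in all 4 groups of genotype and exposure. The order depends on the lengths used, such as 4241 bases for Otc and 2360 for Oat, and lengths of single transcripts were not tried. Mean levels in KO PFOA were 471 CPM per kb for Cps1, 379.9 for Arg1, 316 for Ass1 and 285 for Oat, then 131 for Otc, 92.2 for Asl, 80.1 for Gls2, 49.2 for Slc25a13, 40.9 for Slc25a15 and 17.3 for Nags. In KO vehicle the leading levels were 585 CPM per kb for Cps1, 512 for Ass1, 465 for Arg1 and 427 for Oat. Cps1 led in both KO groups, and Arg1 in both hPPARa groups. In hPPARa PFOA Arg1 had 545 CPM per kb, before Cps1 at 391, Oat at 299 and Ass1 at 286. In hPPARa vehicle Arg1 had 832 CPM per kb, before Ass1 at 556, Cps1 at 526 and Oat at 315. The libraries of Arg1 and Ass1 overlapped in hPPARa vehicle, at 694 to 1014 and 470.2 to 704 CPM per kb, as did those of Ass1 and Cps1 (480 to 589.8 CPM per kb). Nags was last in all 4 groups, and its highest library in any group, at 20.6 CPM per kb, was below the lowest library of every other member.

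By group mean of log2 CPM, Ass1 stood at 10.25 to 10.41 in the 4 vehicle groups and at 9.10 to 9.82 in the 4 PFOA groups, so that all vehicle groups came before all PFOA groups. Neighbours among the vehicle groups overlapped in their libraries. Arg1 ran in another order, with hPPARa vehicle females highest (10.98), then hPPARa vehicle males (10.64) and hPPARa PFOA females (10.61), and the KO PFOA males lowest (9.64). hPPARa PFOA males (9.94) and KO vehicle males (9.92) were neighbours whose libraries overlapped. Cps1, Asl, Slc25a15 and Gls2 had their lowest group mean in hPPARa PFOA males and their highest in the lone KO vehicle female.

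Genes with the most similar pattern over the 8 group means were sought among 7449 genes for the 6 members whose group means spanned at least 1 on the log2 scale. The measure was the root mean square difference of the centred means, with no test. For Ass1 the nearest were Enpp1 (0.155), Trf (0.162) and Pigr (0.173). For Arg1 they were Alb (0.134) and Zfp276 (0.144), for Asl Anks1 (0.107), Slc25a51 (0.162) and Irf2bp2 (0.164), and for Cps1 Serpina3n (0.136), Itih2 (0.138) and Reln (0.149). For Gls2 they were Mapre2 (0.13), H2-T23 (0.148) and Igsf8 (0.162), and for Oat St6galnac6 (0.169), Zfp395 (0.175) and Rhpn2 (0.178). Alb, which encodes albumin, and Trf, which encodes transferrin, are secreted products of hepatocytes.

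Of 13 tested genes that handle ammonia and glutamine outside the cycle, 2 were called with PFOA in KO, both lower. In hPPARa 5 were called, of which 4 fell and 1 rose. Over all genes tested 13.8% were called with PFOA in KO and 22.6% in hPPARa, shares that stand beside every list below. Calls that involve KO, in this list and below, were not checked without the 3 libraries that held transcripts of the other sex. Without these, the calls over all genes fell from 2113 to 630 for PFOA in KO. For KO against hPPARa on vehicle they fell from 596 to 195, and for PFOA by genotype from 185 to 39. An unadjusted p under 0.05 was reached by 5 of the 13 in KO and 7 in hPPARa, and DESeq2 called 4 and 6. Glul, the glutamine synthetase that captures ammonia around the central vein, averaged 935 ± 125 CPM in KO PFOA and 1467 ± 236 CPM in KO vehicle (SD, n = 6 and 4), and 680 ± 170 CPM in hPPARa PFOA and 1198 ± 157 CPM in hPPARa vehicle (SD, n = 5 each). It fell in KO (log2 fold change −0.69 ± 0.13, adjusted p = 0.00389) and in hPPARa (−0.85 ± 0.16, adjusted p = 0.00251). Glud1, the glutamate dehydrogenase that releases ammonia in the mitochondria, fell too (−0.39 ± 0.11, adjusted p = 0.0348 in KO, and −0.53 ± 0.12, adjusted p = 0.00756 in hPPARa). Asns, which makes asparagine with the amide of glutamine, rose 9.2-fold in hPPARa (3.20 ± 0.49, adjusted p = 0.00193), with 3.86 to 29.8 CPM in PFOA and 0.671 to 1.56 CPM in vehicle libraries. Car5a, the mitochondrial carbonic anhydrase that supplies bicarbonate to Cps1, was not called (0.03 ± 0.15, adjusted p = 0.918 in KO, and 0.07 ± 0.18, adjusted p = 0.816 in hPPARa).

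Among 10 tested carriers and modifiers around the cycle, 1 rose and 1 fell in KO, and 4 were called in hPPARa, all higher, with 2 and 4 called by DESeq2. Sirt5, the deacylase that acts on Cps1, rose in KO (log2 fold change 0.42 ± 0.11, adjusted p = 0.0255) and in hPPARa (0.44 ± 0.10, adjusted p = 0.00903). Slc25a22, a mitochondrial glutamate carrier, fell in KO (−0.89 ± 0.22, adjusted p = 0.024). In hPPARa Slc25a10, the dicarboxylate carrier, rose (0.52 ± 0.10, adjusted p = 0.00294), as did Mdh2, the mitochondrial malate dehydrogenase (0.35 ± 0.09, adjusted p = 0.0104).

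Of 15 tested genes of arginine, ornithine and proline metabolism, 2 were called in KO, both lower, and 2 fell and 2 rose in hPPARa, where DESeq2 called 2 in KO and 4 in hPPARa. Prodh, proline dehydrogenase, fell in KO (log2 fold change −0.72 ± 0.15, adjusted p = 0.00858), and so did Prodh2, which oxidises hydroxyproline (−0.45 ± 0.08, adjusted p = 0.0037). In hPPARa, Gamt, which completes creatine synthesis, fell (−0.96 ± 0.10, adjusted p = 1.69e-05). Ddah1, which breaks down methylated arginine, rose (1.01 ± 0.12, adjusted p = 6.6e-05), as did Odc1, which turns ornithine into putrescine (0.93 ± 0.17, adjusted p = 0.00163). Of the 5 lists around the cycle, edgeR called a difference of the PFOA effects between the genotypes for Gamt alone (0.65 ± 0.15, KO minus hPPARa, adjusted p = 0.0334), whereas DESeq2 called 3 genes of this list, 1 of transamination and amino acid breakdown and 2 regulators. On vehicle Gamt was lower (−0.50 ± 0.11, adjusted p = 0.0135) and Ddah1 higher (0.55 ± 0.15, adjusted p = 0.0458) in KO than in hPPARa.

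Of 31 genes for transamination and amino acid breakdown, 4 fell and 1 rose in KO, and 4 fell and 4 rose in hPPARa. These counts stand beside 13.8% and 22.6% of all genes. DESeq2 called 10 in KO and 12 in hPPARa. Prodh2 is also in this list. Cbs, the first enzyme of transsulfuration, fell in KO (log2 fold change −0.63 ± 0.14, adjusted p = 0.00875), as did Sdsl, a serine dehydratase-like protein (−0.59 ± 0.15, adjusted p = 0.021). In hPPARa Amt, a subunit of the glycine cleavage system that yields ammonia, rose (0.73 ± 0.10, adjusted p = 0.00014), Aadat, an aminotransferase of lysine and tryptophan breakdown, rose (0.57 ± 0.13, adjusted p = 0.0077), and Fah, the last enzyme of tyrosine breakdown, fell (−0.38 ± 0.10, adjusted p = 0.0126). On vehicle, Bckdhb, a subunit of the branched-chain keto acid dehydrogenase, was 2.38-fold higher in KO than in hPPARa (1.25 ± 0.13, adjusted p = 4.41e-06), and Aadat was higher as well (0.57 ± 0.15, adjusted p = 0.0408).

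Of 13 regulators named for the cycle, 2 fell and 1 rose in KO, and 5 fell and 1 rose in hPPARa, where DESeq2 called 4 in KO and 6 in hPPARa. Gcgr, the receptor of glucagon, a hormone that raises urea cycle enzymes, fell in KO (log2 fold change −0.48 ± 0.09, adjusted p = 0.00346) and in hPPARa (−0.44 ± 0.11, adjusted p = 0.012). Creb3l3, a liver transcription factor, rose in KO (0.53 ± 0.11, adjusted p = 0.006) and in hPPARa (0.62 ± 0.12, adjusted p = 0.00232). Ppargc1a, a coactivator of fasting genes, fell in KO (−0.68 ± 0.19, adjusted p = 0.0358). Cebpb, a C/EBP transcription factor, fell with PFOA in hPPARa (−0.61 ± 0.12, adjusted p = 0.00306) and was lower on vehicle in KO than in hPPARa (−1.80 ± 0.24, adjusted p = 0.000451). On vehicle, Crtc2, a CREB coactivator, was higher (0.56 ± 0.13, adjusted p = 0.0149) and Klf15, a factor of amino acid breakdown, lower (−0.56 ± 0.14, adjusted p = 0.029) in KO than in hPPARa.

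**Figure D4:**
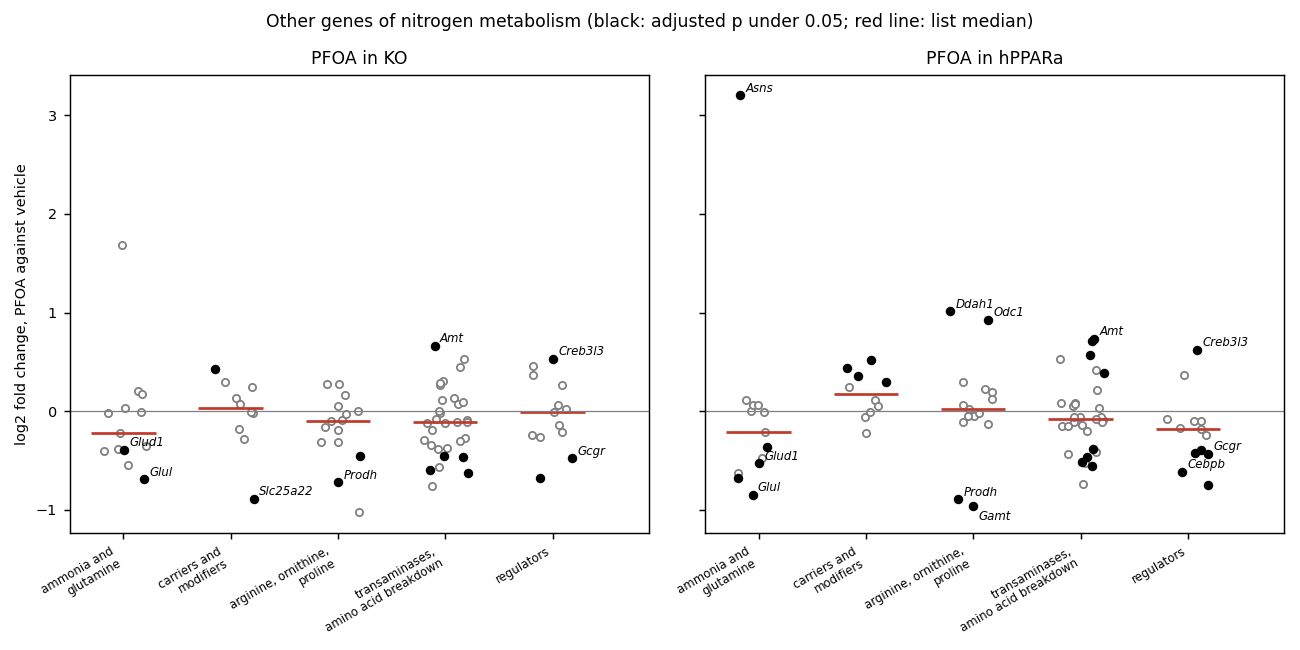
Log2 fold change with PFOA in KO (left) and hPPARa (right) for the tested genes of 5 lists around the urea cycle; each point is 1 gene, black where the adjusted p was under 0.05, and the red line is the list's median. List medians lie between −0.22 and 0.17, and Asns stands apart at 3.20 in hPPARa.

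Markers of liver cell types also moved with the exposure, and their part in the results above was not tested. Of 9 hepatocyte markers 3 were called with PFOA in KO and 7 in hPPARa, all lower. The median of their log2 fold changes was −0.35 in KO and −0.62 in hPPARa, against −0.34 and −0.33 for the 10 genes. Their summed level was 75996 to 103682 CPM in KO PFOA and 106571 to 126318 CPM in KO vehicle, and 93174 to 137264 CPM in hPPARa PFOA and 129630 to 229163 CPM in hPPARa vehicle. Of 8 periportal markers 0 were called in KO by edgeR and by DESeq2, with 4 at an unadjusted p under 0.05, and 1 rose and 3 fell in hPPARa. Their sums were 3072 to 6116 CPM in KO PFOA and 4432 to 5719.8 CPM in KO vehicle, with overlap, and 3331 to 3934 CPM in hPPARa PFOA and 3959 to 6241 CPM in hPPARa vehicle. Of 10 pericentral markers 2 rose and 2 fell in KO, and 1 rose and 2 fell in hPPARa; Glul is one of them. On vehicle 2 of the 9 hepatocyte markers, named after their values were seen, were lower in KO than in hPPARa, Alb (−0.73 ± 0.15, adjusted p = 0.00973) and Ttr (−0.60 ± 0.14, adjusted p = 0.018). The other 7 were not called, among them Trf (0.14 ± 0.14, adjusted p = 0.63) and Ahsg (0.14 ± 0.13, adjusted p = 0.601), and the median of the 9 log2 differences was 0.06, against −0.01 over all genes.

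Of 8 Kupffer cell markers 3 rose in KO and 4 fell in hPPARa. Their sums were 230 to 388 CPM in KO PFOA and 123 to 263 CPM in KO vehicle. They were 111 to 314 CPM in hPPARa PFOA and 132 to 388 CPM in hPPARa vehicle. The difference of the PFOA effects between the genotypes was called for 0 of the 8 by edgeR, where 1.17% of all genes were called. DESeq2 called it for 3, and 7 had an unadjusted p under 0.05 by edgeR. Of 6 cholangiocyte markers 5 fell in KO. In hPPARa 0 of the 5 tested were called by edgeR and by DESeq2, with 0 at an unadjusted p under 0.05. The difference of the PFOA effects was called for 0 of the 6 by edgeR and 1 by DESeq2. On vehicle 3 of 6 were higher in KO than in hPPARa. Over all genes 3.77% were called on vehicle in either direction, a share that also stands beside the hepatocyte and stellate markers. The cholangiocyte markers summed to 15.9 to 46.5 CPM in KO PFOA, against 50.6 to 67.7 CPM in KO vehicle males and 187 CPM in the KO vehicle female. That library is also the KO library with the highest Cps1, Asl, Arg1, Slc25a15, Gls2 and Oat levels and the lowest Otc and Nags levels. Neutrophil markers summed to 90.0 to 327 CPM in KO PFOA and 0.757 to 3.38 CPM in KO vehicle, and to 5.02 to 10.7 CPM in hPPARa PFOA and 2.15 to 2.56 CPM in hPPARa vehicle, and 1 of the 6 was at 0 in all KO libraries. Of the 3 neutrophil markers tested, all named after their values were seen, S100a8 rose in KO (log2 fold change 8.86 ± 0.57, adjusted p = 5.85e-05) and in hPPARa (4.60 ± 0.41, adjusted p = 8.35e-06). S100a9 (0.30, adjusted p = 0.746 in KO, and 0.65, adjusted p = 0.294 in hPPARa) and Csf3r (0.18, adjusted p = 0.78, and −0.31, adjusted p = 0.394) were not called. Of 7 endothelial markers 2 rose in KO and 5 in hPPARa, and of 7 stellate markers 2 fell in each genotype, with 1 higher in KO than in hPPARa on vehicle. Of the lymphocyte and erythroid lists 0 markers were called in these comparisons by edgeR, where 1 erythroid marker had an unadjusted p under 0.05 and a call by DESeq2 in hPPARa. No marker of the other lists was at 0 in every library of a group.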

How the data were processed

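Each genotype had its own table, in which the authors deposited raw integer counts for every gene symbol. Per the labels' protocols, total RNA with an RNA integrity number above 7 was sequenced on the BGI platform. The submitters' processing notes name the build GRCm39 and the tools STAR 2.5.3, featureCounts 1.6.1, FastQC 0.11.5, cutadapt 1.15, edgeR 3.36.0 and R 4.1.0. Which step used which tool, the annotation and whether counting used strand were not stated, so overlapping and antisense genes could not be told apart. The PFOA level, written 8 µm, was read as micromolar.

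From these deposited counts, R 4.3.3 with edgeR 4.0.16 gave TMM factors (0.895 to 1.08), its default low-count filter, the robust quasi-likelihood test and p-values adjusted by Benjamini-Hochberg over all genes tested, with a threshold of 0.05. PFOA against vehicle and male against female came from exposure plus sex within a genotype, effects within a sex from 4 groups, and differences between genotypes from 1 model of 20 libraries. The SE is the log2 fold change divided by the square root of F. CPM uses TMM factors of all 20 libraries. DESeq2 1.42.0, other normalization and filters, a replicate block and left-out libraries were alternatives. Replicates differed beyond counting noise, so none was counted as a repeat. The chi-square per gene was 7.31 for the pair of hPPARa female PFOA libraries and 13.3 to 41.8 for all other pairs. The smallest group held 1 library, so the filter kept genes high in that library alone.

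The members, lists and tests were chosen with earlier results of these data known. All members are named; from each other list up to 3 called genes with the smallest adjusted p and a mean of at least 1 CPM, with Glul, Glud1, Car5a and Ppara always. A few genes that these rules name are not reported here. Promoters are the 250 upstream bases from RefSeq.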

Additional observations from a re-analysis of the deposited data

Results flagged for a closer look

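For Otc in KO livers the PFOA libraries lay below the vehicle libraries in males and above the lone vehicle library in females, and neither difference was called (adjusted p = 0.0877 in males and 0.289 in females). All 3 KO PFOA males, at 545 to 580.2 CPM, were below all 3 KO vehicle males, at 655 to 738 CPM, while all 3 KO PFOA females, at 529 to 569 CPM, were above the single KO vehicle female, at 447 CPM. The PFOA effect in males minus that in females was −0.59 ± 0.18 on the log2 scale, with an adjusted p of 0.242 by edgeR and 0.0248 by DESeq2. The vehicle female is 1 library, it held Y-linked transcripts (Ddx3y at 1.86 CPM), and their part in the difference was not tested.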

How the results depend on the processing

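The count of the 10 genes called for PFOA in KO, 1 with the settings of the report, was 6 with DESeq2, 7 with no filter on low counts, 2 with the replicate block, 3 with an equal weight for the sexes, 3 in the joint fit of all 20 libraries, 0 without the 3 KO libraries that held transcripts of the other sex, and 1 to 5 with 1 library left out. It was 5 for PFOA in hPPARa, with 6 by DESeq2, 6 with no filter and 4 to 6 when 1 library was left out. For KO against hPPARa on vehicle it was 1, and 0 with the 5 male vehicle libraries alone. In KO males it was 1, with 2 by DESeq2, 2 with no filter, 0 without the 3 libraries, and 0 to 2 with 1 library left out. In KO females it was 2, with 5 with no filter and 1 to 2 with 1 library left out. In hPPARa males it was 5 (2 to 5 with 1 library left out) and in hPPARa females 3 (0 to 4). The PFOA by sex count in KO was 0, with 1 by DESeq2 and 1 with no filter, and in hPPARa 0, with 2 with no filter. For male against female it was 0 in KO, with 1 with no filter (0 to 1 with 1 library left out), and 1 in hPPARa, with 2 by DESeq2, 3 with no filter and 0 to 2 with 1 library left out. No pairing by replicate number was seen, though groups this small cannot exclude it. Correlations of same-numbered libraries were −0.128 to 0.0474 in KO and −0.0444 to 0.106 in hPPARa. Those of other-numbered libraries were −0.117 to 0.151 in KO and −0.115 to 0.115 in hPPARa. With the replicate block edgeR called Oat in KO (−0.69, adjusted p = 0.0471) and in KO females (−1.26). Calls were lost for Ass1 in KO females and in hPPARa females (adjusted p = 0.05) and for Asl in hPPARa males (adjusted p = 0.0806).

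No value that changed sign was past the threshold in the report, and the cause was not tested. Without the 3 KO libraries these were, for PFOA in KO, Nags (−0.21), for KO against hPPARa on vehicle Nags (0.0392) and Gls2 (−0.0557), for PFOA by genotype Otc (−0.0861) and Slc25a15 (0.0385), and for male against female in KO Ass1 (0.0107), Asl (0.12), Nags (−0.12) and Gls2 (0.11). With 8 groups Otc on vehicle was −0.0646, and with the 5 male vehicle libraries Oat was −0.0752 and Slc25a13 −0.0197. With the 11 male libraries PFOA by genotype was −0.10 for Otc and 0.0516 for Slc25a15. With the replicate block Slc25a13 was −0.0838 in KO females and Cps1 0.0601 in hPPARa females. With no filter Slc25a13 was −8.02e-05 for PFOA by sex in KO, Cps1 was 0.0289 in hPPARa females and Otc −0.00749 for PFOA by sex in hPPARa. With 1 library left out, signs changed within the following ranges. For PFOA in KO the range was −0.13 to 0.12 for Nags, and for PFOA in hPPARa −0.18 to 0.0643 for Oat. For KO against hPPARa on vehicle it was −0.0139 to 0.13 for Slc25a13, −0.0105 to 0.24 for Otc and −0.0221 to 0.20 for Gls2, and for PFOA by genotype −0.0848 to 0.16 for Cps1, −0.0919 to 0.16 for Otc and −0.25 to 0.0108 for Slc25a15. For PFOA in KO females it was −0.0675 to 0.19 for Slc25a13, and for PFOA by sex in KO −0.12 to 0.14 for Slc25a13, −0.0386 to 0.20 for Cps1, −0.0824 to 0.15 for Ass1 and −0.0188 to 0.25 for Arg1. For PFOA in hPPARa females it was −0.0609 to 0.0926 for Cps1 and −0.00844 to 0.33 for Oat, and for PFOA by sex in hPPARa −0.10 to 0.16 for Otc, −0.18 to 0.062 for Slc25a15 and −0.15 to 0.23 for Asl. For male against female it was −0.0261 to 0.13 for Slc25a13, −0.11 to 0.0235 for Ass1, −0.00519 to 0.25 for Nags and −0.23 to 0.0492 for Gls2 in KO, and −0.11 to 0.0627 for Slc25a13 and −0.0253 to 0.0852 for Otc in hPPARa.

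Depth of at least 14973673 counts a library and groups of 1 to 3 libraries limit the precision. Over all genes, the 2113 calls for PFOA in KO became 2416 with DESeq2, 2774 with no filter and 630 without the 3 libraries. The 3253 calls for PFOA in hPPARa became 3520 with DESeq2 and 3575 with no filter. The 596 calls for KO against hPPARa on vehicle became 920 with DESeq2, 1013 with no filter, 195 without the 3 libraries, 304 with the 9 vehicle libraries alone and 69 with the 5 male ones. The 185 calls for PFOA by genotype became 421, 545 and 39 under the first 3 of these settings, 310 with 8 groups and 26 with the 11 male libraries. The PFOA by sex calls in KO, 37, became 163 with DESeq2 and 381 with no filter, and those in hPPARa, 15, became 138 and 323. The male against female calls in KO, 523, became 930 and 1322, and those in hPPARa, 501, became 927 and 1088.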
